A study of Mus musculus with 8 samples.

Results

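Complement genes were followed in the lungs of CC-LR mice that carried K-ras-driven lung tumors and received the STAT3 inhibitor TTI-101 or served as controls. The 9 members, C3, C4b, C2, Cfb, C1qa, C1qb, C1qc, C5ar1 and C3ar1, were chosen by gene name from the 54532 genes of the count table. The CC-LR mouse combines CCSP-Cre with LSL-K-ras G12D on a C57BL/6 background, so that mutant K-ras is switched on in the airway epithelium that expresses the club cell secretory protein, while other cells of the lung carry the unrecombined allele. All 8 mice had this genotype and were 14 weeks old. The 4 TTI-101 mice had been given the drug for 4 weeks. What the controls received and the route of the drug in these mice are not stated. RNA came from whole lungs, tumor and surrounding tissue together, with 1 poly(A) library per mouse. In bulk tissue, fewer cells of a type and less RNA per cell cannot be told apart.

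Complement is a cascade of plasma and tissue proteins that marks microbes, dying cells and tumor cells for clearance. It starts by the classical pathway, in which C1q binds a surface and C4 and C2 form the C3 convertase, by the lectin pathway, or by the alternative pathway, in which factor B (Cfb) joins C3b. C3 is the point where these routes meet, and its fragment C3a and the C5 fragment C5a act on the receptors C3ar1 and C5ar1 of myeloid cells. The liver makes most of the plasma proteins, while C1q is made chiefly by macrophages and related cells, and epithelial cells and fibroblasts of the lung also make C3.

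RefSeq promoters on GRCm38.p6 were found for 5 of the 9 members (C1qb, C1qc, C3, C3ar1 and C5ar1). Of these, 3 are shown, for a C1q chain, the central component and a receptor. The lines give the 250 bases before the RefSeq start, read 5′ to 3′ on the minus strand, at chr4:136886201-136886450 for C1qb, chr17:57228137-57228386 for C3 and chr7:16259339-16259588 for C5ar1. Capitals in C1qb and C5ar1 mark the ETS core AGGAAGT as it reads on the other strand, and capitals in C3 mark a C/EBP-type motif, TTGCGNAA.
C1qb: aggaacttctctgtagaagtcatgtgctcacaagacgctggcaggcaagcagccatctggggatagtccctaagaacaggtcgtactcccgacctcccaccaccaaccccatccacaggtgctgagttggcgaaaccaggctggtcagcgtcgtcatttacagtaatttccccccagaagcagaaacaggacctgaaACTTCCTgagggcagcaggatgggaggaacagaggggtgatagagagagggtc
C3: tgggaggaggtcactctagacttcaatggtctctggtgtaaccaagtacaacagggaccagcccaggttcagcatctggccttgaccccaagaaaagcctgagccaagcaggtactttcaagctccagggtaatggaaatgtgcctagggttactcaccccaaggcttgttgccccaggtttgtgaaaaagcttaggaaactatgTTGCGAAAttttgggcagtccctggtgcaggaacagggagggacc
C5ar1: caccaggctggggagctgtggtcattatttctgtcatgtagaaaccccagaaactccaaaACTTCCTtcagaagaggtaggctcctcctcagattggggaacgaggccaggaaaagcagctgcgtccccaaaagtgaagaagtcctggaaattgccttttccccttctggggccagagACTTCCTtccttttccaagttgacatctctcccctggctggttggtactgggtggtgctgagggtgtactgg
The ETS core, named after a family of transcription factors that includes the myeloid factor PU.1, lay 53 to 47 bases before the start of C1qb. C5ar1 held it 190 to 184 and 72 to 66 bases before the start, and C1qc held it 195 to 189 bases before. Searched on both strands, it was present in 2525 of 32851 RefSeq promoter windows of this length (7.69%). The C/EBP-type motif of C3 lay 45 to 38 bases before the start and was present in 220 windows (0.67%). Another motif searched, of the NF-κB type, was found in C3ar1, 14 to 5 bases before the start, and in 464 windows (1.41%). The STAT motif TTCNNNGAA was in 0 of the 5 member windows and in 2306 of all windows (7.02%), which says only that these letters are not in those 250 bases. The GENCODE M21 genes of C5ar1, C1qc and C3ar1, on the minus strand, start at chr7:16259540, chr4:136893065 and chr6:122856161, inside their windows. Part of each of these windows therefore lies within the annotated gene. That part holds both ETS matches of C5ar1, but not the matches of C1qc and C3ar1. The motifs were chosen with the sequences in view, and a match is a description of letters, not of binding.

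Counts per library summed to between 16446481 and 26873509 in control and between 16075855 and 25920509 in TTI-101 mice. Levels are given as CPM, that is, counts divided by library size after edgeR's TMM factors had adjusted that size for differences in library composition. Control mouse 4 stood apart on the first principal component of log2 CPM, at 98.2 against -39.2 to 19.0 in the other mice, and 5.56% of its counts came from mitochondrial genes against 2.01% to 2.85%. Markers of lung epithelium were abundant in all libraries, with summed alveolar type 2 markers (Sftpc, Sftpb, Sftpa1, Abca3, Lamp3) of 28761 to 67347 CPM. Hepatocyte markers (Alb, Apoa1, Ttr, Serpina1a, Fgb) summed to 0.669 to 1.66 CPM in the other mice and to 11.3 CPM in control mouse 4, and Fgb was at 0 in all 8. Mice 1 and 2 of each group expressed Xist and had 0 counts of the Y-linked Ddx3y, and mice 3 and 4 of each group expressed Ddx3y, so both groups held both sexes. The targeted gene Stat3 had means of 257 and 244 CPM in control and TTI-101 mice, a transcript level that does not measure the drug's action on the protein. Of the other marker lists, red cell genes (Hba-a1, Hbb-bs, Alas2) were all higher at an unadjusted p under 0.05, with sums of 51.5 to 221 CPM in control and 183 to 1421 CPM in TTI-101 mice. Of the club cell, monocyte and hepatocyte markers 1 each was lower at that threshold, Scgb1a1 (log2 fold change -0.75), Vcan (-0.58) and Alb (-2.10), the last with 11.1 CPM in control mouse 4 and at most 1.21 CPM elsewhere. Summed club cell markers were 14655 to 36957 CPM in control and 12380 to 23013 CPM in TTI-101 mice, and summed monocyte markers were 91.8 to 189 CPM and 74.3 to 135 CPM.

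C3 was the most abundant member, and Cfb was the member with the largest difference between the groups, higher in TTI-101 lungs. Cfb had 4 to 31 counts per library and passed the expression filter only through the TTI-101 group. Its difference, unadjusted p and non-overlap are therefore given as descriptions, without support for a change. For C3, the C1q chains, C4b, C2 and both receptors, the group means differed by less than the SD among TTI-101 mice. Against the smaller SD among controls, the difference was larger for C3, C1qb, C5ar1 and C3ar1. After Benjamini-Hochberg adjustment of edgeR's quasi-likelihood p-values over all genes, 0 of the 9 members passed an adjusted p of 0.05, as did 0 of the 17138 genes tested (0%). DESeq2's Wald test called 4 genes in all at this threshold and 0 members. At an unadjusted p under 0.05, edgeR gave 1132 genes in all. Of the members, 1 (Cfb) was higher at that threshold, where 3.02% of all genes tested were higher, and 0 were lower, where 3.58% were lower. The 4 TTI-101 values lay above all 4 control values for 1 member, again Cfb, against 1.53% of all genes, and below them for 0 members, against 1.43%. The median log2 fold change of the members was 0.11, with 5 positive and 4 negative, against 0.00 over all genes tested.

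**Figure D1:**
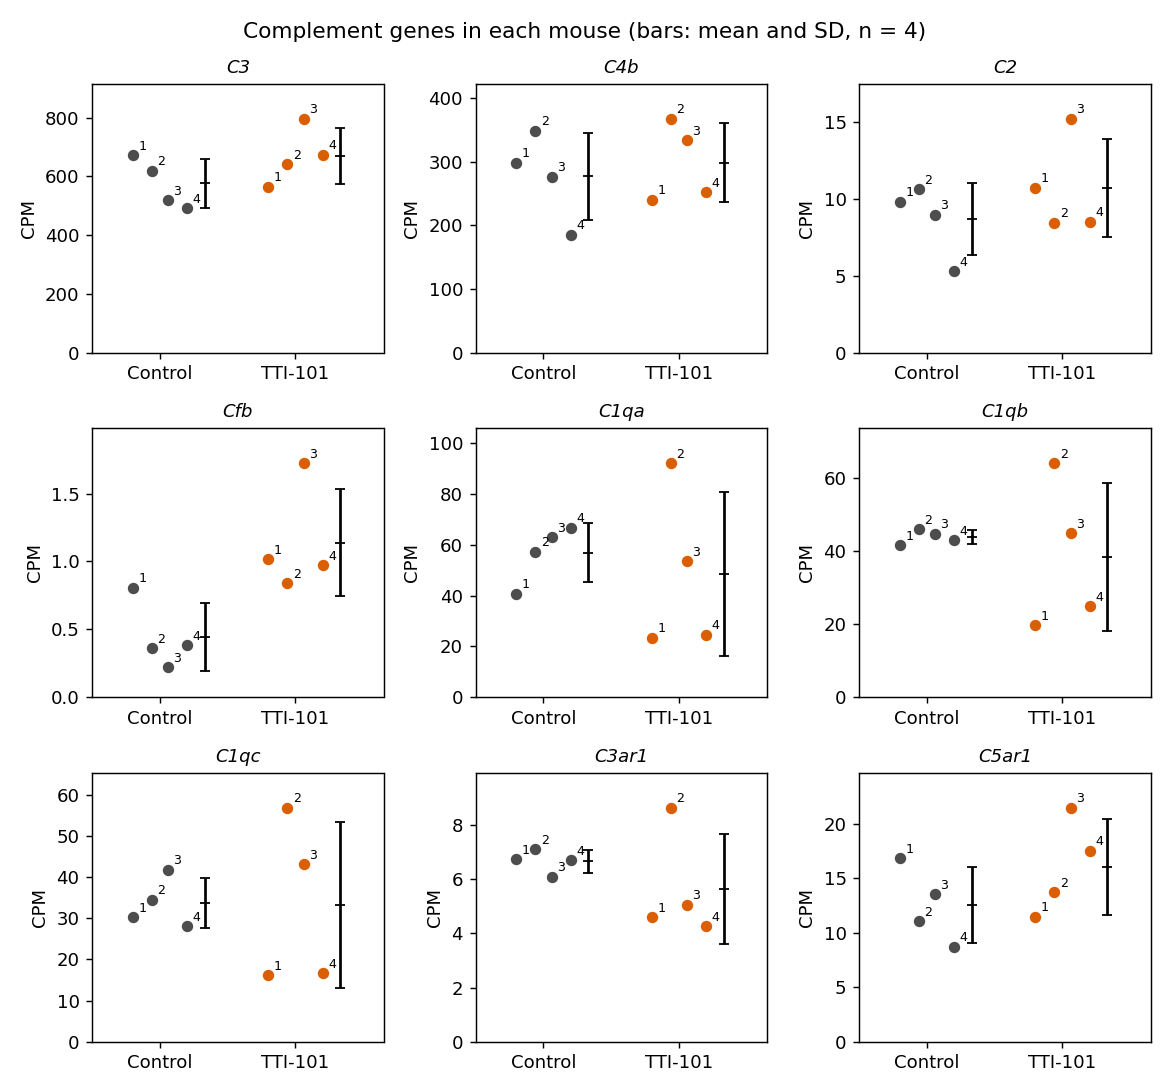
Expression of the 9 complement genes in each mouse, in CPM on a linear axis from 0, with control mice in grey, TTI-101 mice in orange, the mouse number beside each point and a bar for each group's mean and SD (n = 4). The groups overlap in every gene but Cfb, whose TTI-101 mice sit between 0.841 and 1.72 CPM and whose control mice sit between 0.222 and 0.807 CPM.

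C3 (ENSMUSG00000024164, chromosome 17, 57203970 to 57228136), the component on which all pathways converge, was at 672, 620, 519 and 492 CPM in control mice 1 to 4. In TTI-101 mice 1 to 4 it was at 565, 642, 796 and 673 CPM. TTI-101 mice 3 and 4 lay above every control mouse and the other two lay within the control range. The group means were 576 ± 84.5 and 669 ± 96.1 CPM (SD, n = 4 each), which gave a log2 fold change (± standard error) of 0.22 ± 0.17 with an adjusted p of 0.712 by edgeR's quasi-likelihood test. This lay within the spread of the mice (p = 0.171 by a two-sided exact permutation test).

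Factor B, the serine protease subunit of the alternative pathway convertase, is encoded by Cfb (ENSMUSG00000090231, chromosome 17, 34856374 to 34862518). Its expression was 0.807, 0.359, 0.222 and 0.384 CPM in control mice 1 to 4, from 22, 6, 4 and 6 counts. In TTI-101 mice 1 to 4 it was 1.02, 0.841, 1.72 and 0.973 CPM, from 27, 14, 31 and 16 counts. Every TTI-101 mouse lay above every control mouse, with control mouse 1 and TTI-101 mouse 2 the nearest pair. Mean expression was 0.443 ± 0.253 CPM in control and 1.14 ± 0.397 CPM in TTI-101 mice (SD, n = 4 each), which gave a log2 fold change of 1.31 ± 0.48. The unadjusted p was 0.020 and the adjusted p was 0.657 by edgeR, and DESeq2 gave an adjusted p of 0.848. A two-sided exact permutation test gave p = 0.0286, the smallest that 4 against 4 mice allow. Cfb reached the expression filter, 0.573 CPM in at least 4 libraries, only through the TTI-101 group, as 4 TTI-101 mice and 1 control mouse were above it, so a member that passed in this way had to differ. The other 8 members were above it in all libraries. Without control mouse 2, control mouse 3 or TTI-101 mouse 3, the unadjusted p of edgeR's quasi-likelihood test was 0.0520, 0.0553 and 0.0738.

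The low level of Cfb comes with an annotation that leaves few bases of its own. In GENCODE M21, 2246 of its 2825 exonic bases (79.5%) lie in exons of Gm20547 (ENSMUSG00000092511, chromosome 17, 34856412 to 34882042), a gene model on the same strand whose exons are all exons of C2 and Cfb. The bases unshared with it are 579 (20.5%) in 3 blocks, of which the longest has 467 bases at the 5′ end of Cfb. For C2, 1656 of 3872 exonic bases (42.8%) lie in Gm20547 and 161 in Zbtb12 on the opposite strand, and 2055 (53.1%) lie in no other gene. Gm20547 had 0 counts in all 8 libraries. Among all genes whose exonic bases all lie in exons of a gene on the same strand, 725 of 752 (96.4%) had 0 counts in all libraries, against 19831 of 42670 genes with no shared bases (46.5%). Of genes whose exonic bases all lie in exons of a gene on the opposite strand only, 450 of 454 (99.1%) had 0 counts. The counts of Cfb and C2 can therefore miss reads from shared exons, and their levels are uncertain. How the counting tool treated such reads is not given in the sources used here, and its part in the difference of Cfb was not tested.

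**Figure D2:**
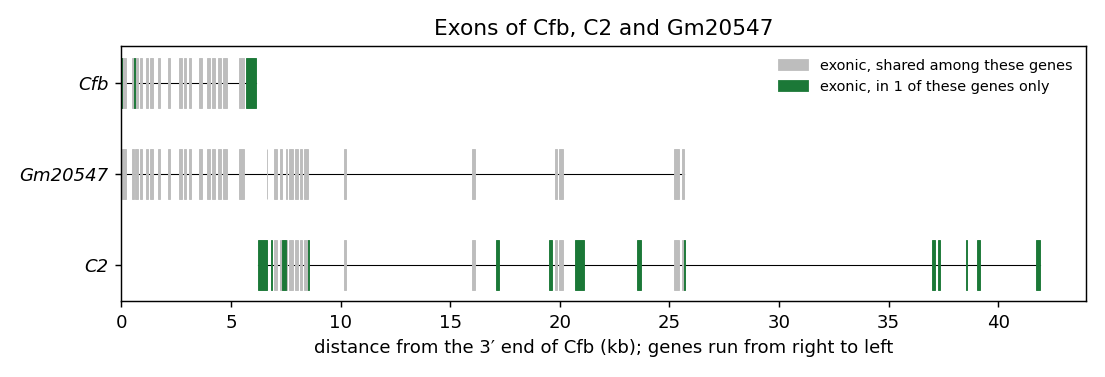
Exons of Cfb, Gm20547 and C2 by distance from the end of Cfb in kilobases, to scale, with exonic bases shared among these genes in grey and bases in 1 gene only in green. The genes run from right to left, most of Cfb lies in shared exons, and its longest green block, of 467 bases, is at its right end.

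C4b (ENSMUSG00000073418, chromosome 17, 34728380 to 34743882), the classical and lectin pathway component cleaved beside C2, was at 299, 349, 276 and 185 CPM in control mice 1 to 4. In TTI-101 mice it was at 240, 368, 334 and 252 CPM. Control mouse 4 was the lowest of all 8 mice and TTI-101 mouse 2 the highest, and the other values overlapped. The means were 277 ± 68.4 and 298 ± 62.1 CPM (SD, n = 4 each), with a log2 fold change of 0.11 ± 0.22 and an edgeR adjusted p of 0.895. The sign turned when control mouse 4 was left out, at -0.04. C4a, its close copy, shared 13.1% of its 100-base words with C4b, which shared 15.2% of its own, so that reads could be placed on either gene. C4a was at 1.94 ± 0.502 CPM in control and 2.51 ± 1.09 CPM in TTI-101 mice (SD, n = 4 each).

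C2 (ENSMUSG00000024371, chromosome 17, 34862604 to 34898265), the serine protease that joins C4b in the convertase, was at 9.83, 10.6, 8.99 and 5.31 CPM in control mice 1 to 4. It was at 10.7, 8.47, 15.2 and 8.51 CPM in TTI-101 mice 1 to 4. Control mouse 4 was again the lowest, and TTI-101 mouse 3 was the highest. The means of 8.69 ± 2.35 and 10.7 ± 3.18 CPM (SD, n = 4 each) gave a log2 fold change of 0.30 ± 0.28 and an edgeR adjusted p of 0.745. Markers of other cells were also low in control mouse 4. Summed fibroblast markers (Col1a1, Pdgfra, Dcn, Lum) were 479 CPM there and 619 to 940 CPM in control mice 1 to 3, and summed mesothelial markers (Msln, Upk3b, Wt1, Lrrn4) were 15.4 CPM there and 79.4 to 165 CPM in the other controls. In TTI-101 mice these sums were 823 to 1188 CPM and 105 to 221 CPM, and 0 of the 8 markers passed an unadjusted p of 0.05. Their part in the levels of C3, C4b and C2 was not tested.

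The 3 chains of C1q, the recognition molecule of the classical pathway, are encoded side by side on chromosome 4 on the minus strand, C1qb (ENSMUSG00000036905) at 136880129 to 136886187, C1qc (ENSMUSG00000036896) at 136889804 to 136893065 and C1qa (ENSMUSG00000036887) at 136895917 to 136898803. C1qa was at 40.7, 57.2, 63.0 and 66.8 CPM in control mice 1 to 4 and at 23.4, 92.1, 53.4 and 24.5 CPM in TTI-101 mice 1 to 4. TTI-101 mouse 2 lay above all controls and mice 1 and 4 of that group lay below all of them. C1qb placed the treated mice likewise, with 41.6, 46.0, 44.8 and 42.9 CPM in control and 19.8, 64.1, 44.9 and 24.9 CPM in TTI-101 mice. C1qc was at 30.3, 34.6, 41.8 and 28.1 CPM in control and at 16.2, 56.9, 43.2 and 16.7 CPM in TTI-101 mice. Here mice 2 and 3 of the treated group lay above all controls and mice 1 and 4 below.

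The means of the C1q genes were close in the groups, while the values lay farther apart among TTI-101 mice. C1qa had means of 56.9 ± 11.5 and 48.4 ± 32.3 CPM in control and TTI-101 mice, C1qb 43.8 ± 1.94 and 38.4 ± 20.2 CPM, and C1qc 33.7 ± 6.03 and 33.3 ± 20.2 CPM (SD, n = 4 each). Their log2 fold changes were -0.24 ± 0.40, -0.19 ± 0.31 and -0.02 ± 0.38, with adjusted p of 0.864, 0.860 and 0.992 by edgeR. Between the lowest and the highest mouse the level differed 1.11-fold in control and 3.24-fold in TTI-101 mice for C1qb, 1.64-fold and 3.94-fold for C1qa, and 1.49-fold and 3.51-fold for C1qc. No test of this difference in spread was made. The values moved with single mice. Without TTI-101 mouse 2 the log2 fold change of C1qa was -0.75 (unadjusted p = 0.0322 by edgeR), in a fit in which 7.62% of all genes tested were lower at an unadjusted p under 0.05, and that of C1qa stayed negative whichever mouse was left out. Those of C1qb and C1qc turned positive without TTI-101 mouse 1, at 0.03 and 0.21, and that of C1qc also without control mouse 3 (0.10) or TTI-101 mouse 4 (0.20).

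**Figure D3:**
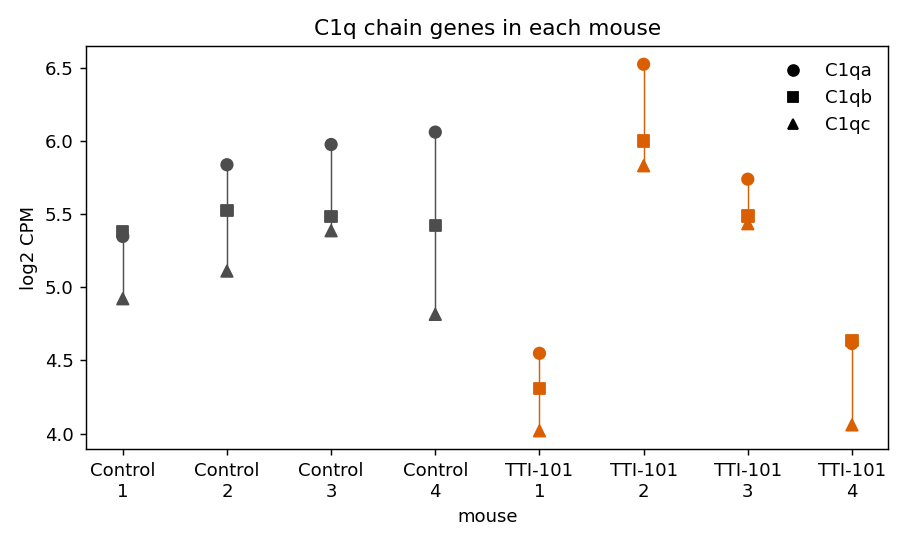
Log2 CPM of C1qa (circles), C1qb (squares) and C1qc (triangles) in each mouse, joined within a mouse by a line, with control mice in grey and TTI-101 mice in orange. In each gene TTI-101 mice 1 and 4 lie below every control mouse and TTI-101 mouse 2 lies above, while the control mice differ in order between genes, with control mouse 4 the highest control in C1qa and the lowest in C1qc.

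Summed over the 3 chains, C1q transcripts made up 113, 138, 150 and 138 CPM in control mice 1 to 4 and 59.4, 213, 142 and 66.0 CPM in TTI-101 mice 1 to 4. Over all 8 mice, ratios between chains varied less than the levels did, which was not so among the controls alone, where C1qb had an SD of log2 CPM of 0.06. The log2 ratio of C1qa to C1qb was 0.35 ± 0.29 in control and 0.25 ± 0.22 in TTI-101 mice (SD, n = 4 each), and it spread by an SD of 0.24 over all 8 mice, against 0.54 for the log2 level of C1qb. That of C1qc to C1qb was -0.39 ± 0.21 and -0.27 ± 0.22 (SD, n = 4 each). Neither ratio was called different between the groups (two-sided exact permutation tests, p = 0.543 and p = 0.429, both 0.543 when adjusted over the 4 ratios examined).

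Markers of macrophages, the main known source of C1q, were set beside these values. The summed general macrophage markers (Adgre1, Csf1r, Cd68, Mrc1, Mertk) were 379, 247, 246 and 191 CPM in control and 263, 232, 394 and 347 CPM in TTI-101 mice 1 to 4, so that TTI-101 mouse 2, the highest in C1q, was the lowest of its group. Genes listed as alveolar macrophage markers (Siglecf, Marco, Chil3, Pparg, Car4, Fabp1) summed to 342 to 1076 CPM in control and 583 to 801 CPM in TTI-101 mice. Most of these sums came from Chil3, at 233 to 840 and 353 to 521 CPM, and Car4, at 78.7 to 207 and 164 to 233 CPM. The sums therefore mainly follow Chil3 and Car4 rather than the whole list. Whether the Car4 transcripts came from macrophages or from other lung cells was not tested. Of the 5 general and 6 alveolar macrophage markers, 0 passed an unadjusted p of 0.05 in edgeR. Interstitial macrophage markers were also listed and are not reported here, so these values do not cover all macrophages. Their part in the spread of C1q was not tested.

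C3ar1 (ENSMUSG00000040552, chromosome 6, 122847138 to 122856161), the receptor of C3a, was at 6.75, 7.11, 6.10 and 6.72 CPM in control mice 1 to 4. In TTI-101 mice it was at 4.60, 8.65, 5.06 and 4.26 CPM. The controls lay close together, and 3 TTI-101 mice lay below all of them while TTI-101 mouse 2 lay above all of them, as it did in C1q. The means were 6.67 ± 0.419 and 5.64 ± 2.03 CPM (SD, n = 4 each), with a log2 fold change of -0.24 ± 0.26 and an edgeR adjusted p of 0.783. Without TTI-101 mouse 2 the log2 fold change was -0.51 (unadjusted p = 0.0403 by edgeR) and the groups did not overlap, which made 2 members with non-overlapping groups in place of 1. In that fit 7.62% of all genes tested were lower at an unadjusted p under 0.05, and 6.19% had every TTI-101 value below every control value, against 3.58% and 1.43% with all mice.

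C5ar1 (ENSMUSG00000049130, chromosome 7, 16246743 to 16259540), the C5a receptor that draws neutrophils and other myeloid cells to a site of activation, was at 16.8, 11.1, 13.5 and 8.70 CPM in control mice 1 to 4. It was at 11.5, 13.7, 21.5 and 17.5 CPM in TTI-101 mice 1 to 4. TTI-101 mice 3 and 4 lay above every control, and the other two lay inside the control range. The means of 12.5 ± 3.48 and 16.0 ± 4.40 CPM (SD, n = 4 each) gave a log2 fold change of 0.35 ± 0.26 and an edgeR adjusted p of 0.697. Neutrophil markers (S100a8, S100a9, Ly6g, Csf3r, Cxcr2, Mpo), of which 4 of 6 were expressed enough to test and 0 passed an unadjusted p of 0.05, summed to 25.2 to 261 CPM in control and 54.1 to 405 CPM in TTI-101 mice. Control mouse 4 was lowest in both C5ar1 and these markers, and their part in C5ar1 was not tested.

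Per kilobase of exon and averaged over the 8 mice, C3 stood at 121 ± 18.9 CPM per kb (SD), above C1qa at 50.6 ± 22.0 and C4b at 50.6 ± 10.8. C1qb followed at 37.8 ± 12.5 and C1qc at 17.3 ± 7.15 CPM per kb. The remaining order was C5ar1 at 5.56 ± 1.60, C2 at 2.51 ± 0.726, C3ar1 at 1.43 ± 0.340 and Cfb at 0.280 ± 0.171 CPM per kb. The ranges over mice did not overlap between C3 and C1qa, C1qc and C5ar1, or C3ar1 and Cfb, and they overlapped between all other neighbours in this order. C1qa was above C4b in 3 of 8 mice, so these do not differ in level beyond their spread. Dividing the same counts by the length shared with no other gene instead, which applies only if no read from shared exons was counted, C2 was at 4.73 ± 1.37 and Cfb at 1.37 ± 0.834 CPM per kb. Within a mouse, the log2 ratio of C3 to Cfb was 10.11 ± 0.46 in control and 9.11 ± 0.28 in TTI-101 mice (SD, n = 4 each), lower in every TTI-101 mouse than in every control (two-sided exact permutation test, p = 0.0286, adjusted over 4 ratios 0.114). The ratio rests on the same Cfb counts as the test above, and since Cfb passed the filter only through the TTI-101 group, this ratio had to differ as well and its p gives no support. That of C4b to C2 was 4.99 ± 0.08 and 4.80 ± 0.46 (SD, n = 4 each; two-sided exact permutation test, p = 0.371).

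Of 50 other complement genes, 35 were expressed enough to test. At an unadjusted p under 0.05 in edgeR, 2 were higher (Cfd and Cr2) and 1 was lower (Clu) in TTI-101 lungs, beside the 3.02% and 3.58% over all genes. After adjustment 0 remained, and 0 had groups that did not overlap. Their median log2 fold change was 0.25, with 22 positive and 13 negative. The count moved with single mice, as did that of all genes. Without TTI-101 mouse 2, 12 complement genes were under 0.05 beside 14.2% of all genes tested, and without control mouse 1, 9 were beside 13.7%. Without control mouse 2 there were 5 beside 6.51%, without control mouse 4 there was 1 beside 3.03%, without TTI-101 mouse 1 there was 1 beside 4.08%, and without TTI-101 mouse 3 there were 0 beside 2.42%.

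Cfd, the protease factor D that cleaves factor B in the alternative pathway, was at 30.7, 61.6, 11.6 and 4.73 CPM in control and 74.9, 163, 110 and 18.0 CPM in TTI-101 mice 1 to 4. The groups overlapped at the low end, where TTI-101 mouse 4 lay within the control range. Its log2 fold change was 1.75 ± 0.76, with edgeR p of 0.0417 unadjusted and 0.657 adjusted, against a two-sided exact permutation p of 0.114. Cfp, properdin, which stabilizes the same convertase, was at 22.7 ± 5.78 and 27.3 ± 4.19 CPM (SD, n = 4 each).

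Cr2, the receptor for C3 fragments on B cells, was at 12.5, 6.75, 4.38 and 1.47 CPM in control and 21.2, 8.41, 11.0 and 18.2 CPM in TTI-101 mice. TTI-101 mice 2 and 3 lay below control mouse 1, and TTI-101 mice 1 and 4 lay above all controls. Its log2 fold change was 1.22 ± 0.53, with edgeR p of 0.0432 unadjusted and 0.657 adjusted. The B cell markers Ms4a1, Cd79a and Cd79b were higher in TTI-101 mice at an unadjusted p under 0.05, with log2 fold changes of 1.56 ± 0.57, 1.32 ± 0.31 and 1.06 ± 0.29, and for Cd79a the groups did not overlap. Their part in Cr2 was not tested. Itgb2, the shared chain of complement receptors 3 and 4, was at 82.5 ± 42.7 and 131 ± 50.6 CPM (SD, n = 4 each).

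Clu, which encodes clusterin, an inhibitor of the terminal complex, was at 601, 540, 767 and 1364 CPM in control and 341, 730, 346 and 333 CPM in TTI-101 mice. Control mouse 4 was the highest and TTI-101 mouse 2 lay inside the control range. Its log2 fold change was -0.90 ± 0.35, with edgeR p of 0.0271 unadjusted and 0.657 adjusted. Cpn2, the regulatory chain of carboxypeptidase N, which inactivates C3a and C5a, had a log2 fold change of -0.75 ± 0.71. Among the membrane regulators, Cd55b stood at 1.42 ± 0.815 and 0.650 ± 0.138 CPM and Csmd1 at 3.71 ± 1.57 and 2.17 ± 1.00 CPM (SD, n = 4 each).

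In the classical list 3 of 5 genes were tested and 0 passed. C1ra, the C1r protease that C1q activates, was at 76.6 ± 16.6 and 90.9 ± 17.1 CPM (SD, n = 4 each). In the lectin list 5 of 9 were tested. The largest differences there were those of Fcna, a ficolin, with a log2 fold change of 1.83 ± 0.85, and of Mbl1, a mannose-binding lectin, with -0.73 ± 0.34, at unadjusted p of 0.0546 and 0.0539 by edgeR's quasi-likelihood test. Of the terminal components, 4 of 7 were tested, with C7 at 120 ± 44.7 and 216 ± 101 CPM and C8g at 2.66 ± 0.722 and 3.68 ± 1.01 CPM (SD, n = 4 each). All of these fell short of an unadjusted p of 0.05.

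**Figure D4:**
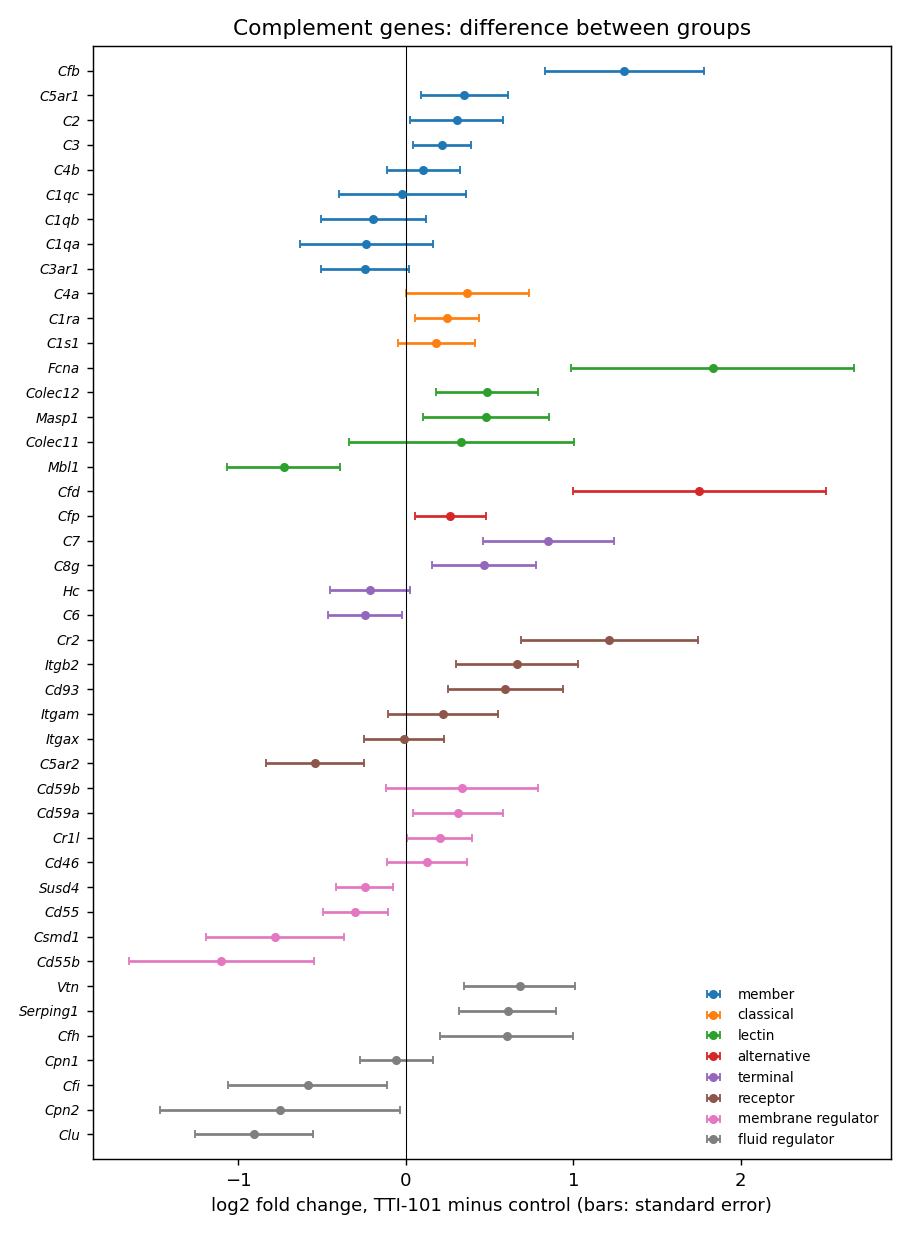
Log2 fold change of TTI-101 against control for each member and each other complement gene tested, grouped by role, with bars of 1 standard error on each side. Cfb has the highest value among the members, at 1.31, and with Cfd, Cr2 and Clu it is one of the genes drawn that were under an unadjusted p of 0.05.

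Genes beside the members on the chromosome were read in the same fit. Of the 12 tested genes that flank the C4b, C2 and Cfb cluster and the C1q cluster, 3 on each side, 1 (Tnxb, at the end beyond C4b) was under an unadjusted p of 0.05, with a log2 fold change of 0.67 ± 0.24 (unadjusted p = 0.0196 by edgeR). The 6 tested genes inside the first cluster, C4a, Zbtb12, Skiv2l, Stk19, Dxo and Nelfe, had log2 fold changes of 0.37, 0.17, 0.01, 0.01, -0.01 and -0.15, and 0 of them were under that threshold. Beside the C1q genes, Ephb2 was at -0.50 and Cdc42 at -0.13.

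The genes whose level followed a member most closely over the 8 mice, by the SD of the log2 difference to it, were Cog1, Cherp and Slc16a10 for C3 (0.06, 0.07 and 0.07, against an SD of 0.22 in C3 itself). For C1qb they were Ovol2, Trem2 and Wdr54 (0.11, 0.18 and 0.19, against 0.54), and for C1qc they were Gm38157, Gm19426 and C1qb (0.19, 0.21 and 0.21, against 0.64). C2 was followed by Rgma, Pi16 and Col1a2, C5ar1 by Abcg1, Rab11fip5 and Zc3h12a, and C3ar1 by Galm, Igsf23 and Sgsm3. For C4b they were Dpp7, Shisal1 and Tepsin, for C1qa Fuom, Gm43566 and Fbxo2, and for Cfb Arhgap22, Ccnjl and Ccdc42. With 17138 genes searched over 8 mice, close matches are likely for any gene, and no test was made.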

How the data were processed

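Whole-lung RNA of 8 CC-LR mice was sequenced from TruSeq Stranded mRNA libraries, 1 per mouse. The authors deposited raw counts, whole numbers with no scaling, for each Ensembl gene, and the submitters' processing notes name STAR, DESeq2 and mm10. The counting tool and its strand setting are not given in the sources used here. Groups were taken from the labels, and depth is given in the report.

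In R 4.3.3, edgeR 4.0.16 kept 17138 genes with filterByExpr (minimum count 10), scaled libraries by TMM, and compared groups with robust quasi-likelihood F-tests adjusted by Benjamini-Hochberg over all genes tested. Exact permutation tests, two-sided, used all 70 assignments of the 8 mice on log2 CPM (prior count 2). Alternatives were DESeq2 1.42.0, limma-voom (limma 3.58.1), scaling by library totals or by DESeq2 size factors, a filter of 10 counts in every library or none, the replicate number as a block, the level of Xist as a covariate, no robust shrinkage, a prior count of 0.5 for ratios and each library left out in turn. The edgeR fit was tested on simulated data. Exons came from GENCODE M21, in which all 9 members have the file's coordinates, and promoters from RefSeq.

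All members are named. Other complement genes and cell markers are named where the unadjusted p was under 0.05 or the groups did not overlap, and a role list with fewer than 2 such genes adds those with the largest log2 fold changes. The members and lists were chosen with earlier results of these data known. Some marker genes, and the list sums that include them, are not reported here.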

Additional observations from a re-analysis of the deposited data

How the results depend on the processing

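Cfb kept its direction under every alternative that tested it, with a log2 fold change of 1.31 to 1.36 with all 8 mice and of 1.04 to 1.81 when a mouse was left out. These alternatives use the same few counts of Cfb, so their shared direction adds no support. With at least 10 counts in every library Cfb was not tested, and 0 members were under an unadjusted p of 0.05. Leaving out each mouse in turn, 0 to 3 members were under it, 1 to 2 had groups that did not overlap, and 0 to 12 of the other complement genes were under it. In those fits 2.42% to 14.2% of all genes tested were under it, and 3.69% to 13.8% had groups that did not overlap. With all mice, edgeR gave 3 other complement genes beside 1132 genes in all. The numbers were 6 beside 1098 in limma-voom and 7 beside 1689 in DESeq2. DESeq2 was run without the expression filter, so its counts came from more genes. Over all genes, those at an unadjusted p under 0.05 ranged from 422 to 2498 with a mouse left out and were 1849 with no filter, while those at an adjusted p under 0.05 ranged from 0 to 1 with a mouse left out, and were 4 in DESeq2 and 1 with Xist as a covariate. With a mouse left out, the log2 fold change of C4b ranged from -0.036 (without control mouse 4) to 0.24, that of C1qb from -0.55 to 0.026 (without TTI-101 mouse 1) and that of C1qc from -0.41 to 0.21, and C1qc was at 0.0055 with library totals. The log2 ratio of C3 to Cfb, which rests on the same Cfb counts, kept its direction, and without any single TTI-101 mouse its exact permutation p was 0.0571. The cause of these shifts was not tested.

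The labels number the mice of each group but name no pairing, and the main fit is unpaired. Same-numbered mice deviated together with correlations of 0.40, 0.08, 0.16 and 0.07. Control mice 1 and 2 correlated best with the TTI-101 mouse of their own number, and control mice 3 and 4 with TTI-101 mouse 2. The number also went with sex in both groups, and mouse 1 had the largest library of each group. These values cannot decide whether the numbers pair the mice. With the number as a block, 1298 genes passed an unadjusted p of 0.05 in edgeR and 0 an adjusted one, with 1 member (Cfb, log2 fold change 1.36) and 3 other complement genes.

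Among the members Cfb had the fewest counts, and its 4 to 31 counts per library leave a wide counting error. The parts of depth and of shared exons in these low counts were not tested.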
